A study of Mus musculus with 21 samples.

Results

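Class I odorant receptors are the older of the main receptor classes of the mammalian nose, and the set described here was taken by name. It holds every gene called Olfr543 to Olfr692, with no pseudogene suffix, that stands in both deposited expression tables. These are 117 of the 1242 receptor genes (9.42%) in the larger table and 117 of the 1208 in the smaller table. RefSeq places all 117 on mouse chromosome 7, within chr7:102476773-105369317 (build GRCm38.p6, the assembly of mm10), a stretch of 2892545 bases. It lists 116 of them as protein coding and Olfr664 as a pseudogene. Under the older MOR naming scheme, in which class I receptors take the family numbers up to MOR42, 112 of the 113 members with a MOR name were class I. Olfr605 was the exception, and Olfr596, Olfr652, Olfr681 and Olfr687 have no MOR name in RefSeq.

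An olfactory sensory neuron (OSN) expresses a single receptor gene, chosen while the neuron is immature and expressed more strongly as it matures. Class I receptors resemble the receptors of fish, many of them bind water-soluble odorants such as carboxylic acids, and the neurons that choose them lie mostly in the dorsal zone of the olfactory epithelium. Their genes form a single cluster that surrounds the beta-globin genes, whereas the far more numerous class II genes are spread over many chromosomes. Each receptor is therefore rare in a pool of neurons, and its level in bulk RNA mixes the number of neurons that chose it with the RNA in each. In these libraries, fewer cells of a type and less RNA per cell cannot be told apart.

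The study sorted cells of the main olfactory epithelium by mCherry and sequenced their RNA in 21 libraries. Every mouse carried a tetracycline-operator (tetO) transgene, either tetO-HyperTRIBE-mCherry (HT) or tetO-Mex3a-HyperTRIBE-mCherry (MexHT). HyperTRIBE is an RNA-editing domain, here alone or joined to Mex3a, an RNA-binding protein. In one table all mice carried both the gg8-tTA and OMP-tTA drivers, which turn the transgene on in immature and mature OSN. It has 6 MexHT OSN, 5 MexHT negative, 3 HT OSN and 3 HT negative libraries. In the other table the mice carried gg8-tTA alone, which is active in immature OSN, with 2 MexHT OSN and 2 MexHT negative libraries, called gg8 MexHT below. "OSN" stands for mCherry+ cells and "negative" for mCherry- cells. Per the labels, an OSN and a negative library with the same number came from the same mouse, so the negative cells carry the same transgenes and drivers and are not transgene-free controls. The ages of the mice are not given in the sources used here. The library names of the tables carry different dates, so driver and date cannot be told apart, and no test was made across the tables.

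The recovered depth was 7425290 to 12443100 counts per library with both drivers and 10262500 to 15216500 with gg8 alone. The 117 members together took 117 to 7532 of these counts. Mex3a, the transgene's partner, stood at 328 to 1271 TPM, a length-normalised level scaled to the same total in every library, in MexHT OSN and 24.0 to 61.5 TPM in HT OSN. Omp, the marker of mature OSN, stood at 682 to 1597 TPM in MexHT OSN, 1785 to 2704 in HT OSN and 53.8 to 164 in gg8 MexHT OSN. The negative libraries also held neurons: Omp reached 46.9 to 1431 TPM in MexHT negative, 1093 to 2159 in HT negative and 1937 to 3561 in gg8 MexHT negative cells. Some libraries stood apart. HT OSN 3 had a summed level of 8 immune cell markers of 4463 TPM, against 263 to 1323 TPM in the other gg8+OMP OSN libraries. MexHT negative 5 had the lowest Omp of the negative libraries, and gg8 MexHT OSN 2 had 79.3 TPM over all receptor genes, the lowest of all libraries. Where leaving out such a library changed a call or moved a value strongly, the value without it is given below.

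In most mice the summed class I level and the class I share of receptor RNA stood lower in the mCherry+ neurons than in the mCherry- cells. Their summed level was 149, 264, 89.1, 229 and 44.8 TPM in MexHT negative 1 to 5. In the 6 MexHT OSN libraries it ran from 32.6 to 92.6 TPM with a median of 71.6. It was 291, 423 and 62.6 TPM in HT negative 1 to 3 and 183, 232 and 43.6 TPM in HT OSN 1 to 3. The gg8 mice were farthest apart, at 743 and 649 TPM in the negative and 67.6 and 9.97 TPM in the OSN libraries. The sum was higher in the negative library of 9 of 10 mice, MexHT mouse 3 being the exception at 89.1 against 92.6 TPM. This was not particular to class I, as the summed level of the other receptor genes was also higher in most negative libraries. The exceptions there were MexHT mouse 3 (1075 in negative, 1230 TPM in OSN) and HT mouse 1 (2953 in negative, 3157 TPM in OSN).

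As a share of the TPM of all receptor genes, class I took 8.62%, 11.6%, 7.66%, 13.8% and 5.75% in MexHT negative 1 to 5. In MexHT OSN the share had a median of 6.44% and stayed between 5.98% and 7.19%. It was 8.97%, 10.4% and 5.52% in HT negative and 5.48%, 7.17% and 4.78% in HT OSN. The share was higher in the negative library in 9 of 10 mice, by a mean of 2.89 percentage points over 5 MexHT mice, 2.50 points over 3 HT mice and 4.83 points over 2 gg8 mice. MexHT mouse 5, with 5.75% in negative and 5.98% in OSN, was the exception. MexHT negative 5 lay below every MexHT OSN library and the other 4 MexHT negative libraries above them, and the HT groups overlapped. Of the gg8 mice, mouse 1 had 16.7% against 7.48%, a difference of 9.25 points, and mouse 2 had 13.0% against 12.6%, a difference of 0.418 points, the latter from 117 class I counts in its OSN library. Sums and shares over the members are descriptions and were not tested.

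**Figure D1:**
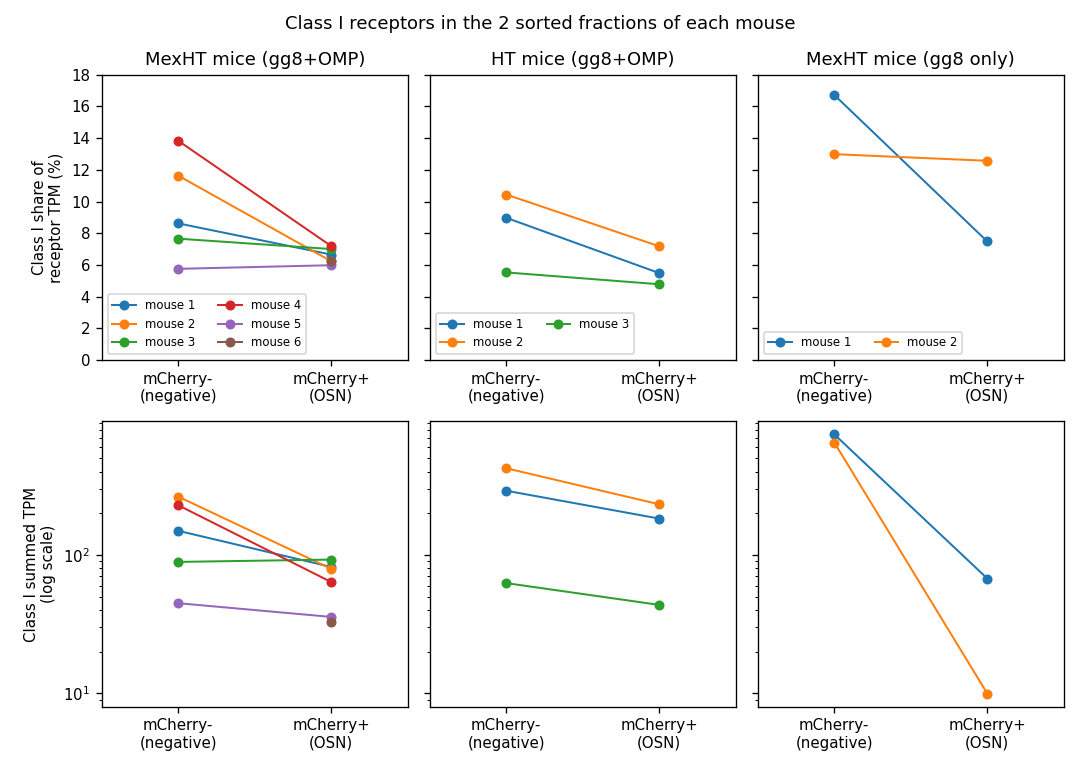
Class I share of all receptor TPM (percent, top row) and class I summed TPM (log axis, bottom row) in the mCherry- and mCherry+ cells of each mouse, with a line joining the libraries of a mouse; MexHT mouse 6 has an OSN library only. The share falls from negative to OSN in 9 of 10 mice and the sum in 9 of 10, with MexHT mouse 5 and MexHT mouse 3 as the respective exceptions.

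More members were detected in the negative libraries too. At 1 TPM or more, 56, 83, 27, 81 and 6 of the 117 members were seen in MexHT negative 1 to 5, against 5 to 28 (median 18.5) in MexHT OSN. HT negative showed 92, 99 and 20 members and HT OSN 64, 77 and 10. The gg8 negative libraries showed 109 and 108 members, and the gg8 OSN libraries 10 and 1. Every one of the 10 mice had more members detected in its negative library, although Omp was higher in the negative library in only 2 of 10 mice, both gg8. Detection over all receptors was also lower in OSN, except in MexHT mouse 3 (399 in negative, 423 in OSN). It was 240 to 615 in MexHT negative and 129 to 423 in MexHT OSN. It was 320 to 878 in HT negative and 202 to 747 in HT OSN. Of detected receptors, class I made up 2.50% to 15.1% in MexHT negative and 3.62% to 7.87% in MexHT OSN. It made up 6.25% to 12.1% in HT negative and 4.95% to 11.2% in HT OSN. In gg8 mice it was 10.8% and 10.7% in negative and 6.06% and 25.0% in OSN. Per 1000 TPM of Omp, class I stood at 139 to 956 TPM in MexHT negative and 25.7 to 60.7 in MexHT OSN, and at 57.3 to 196 in HT negative and 24.4 to 85.9 in HT OSN. That ratio was higher in the negative cells in all 8 mice with both drivers and in neither gg8 mouse, and the same counts held for the other receptor genes.

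Within the class the RNA was spread over many genes. Over the 17 gg8+OMP libraries the members' means ran from 0.0356 to 6.74 TPM with a median of 0.912 TPM, and 54 of 117 (46.2%) averaged 1 TPM or more. Among the 981 other receptor genes without a suffix the median was 0.898 TPM and 44.6% reached that level. The 10 highest members made up 24.4% of the class I sum. They were Olfr549, Olfr672, Olfr640, Olfr543, Olfr681, Olfr689, Olfr645, Olfr571, Olfr665 and Olfr653, and Olfr549 alone made up 4.78%. Only 45 members had a value above 0 in all 17 libraries. By MOR family, MOR31 (10 members, with Olfr549) held 10.4% of the class I level, MOR32 (10 members, with Olfr672 and Olfr675) 8.52% and MOR13 (6 members, with Olfr640) 8.39%. MOR42, the family of Olfr543, Olfr544 and Olfr545, held 5.39% with 3 members. Olfr544 and Olfr545 are known as receptors for medium-chain dicarboxylic acids. By position, the 67 members on the side of the globin genes with lower coordinates had a median of 0.834 TPM and the 50 on the other side 1.03 TPM.

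**Figure D2:**
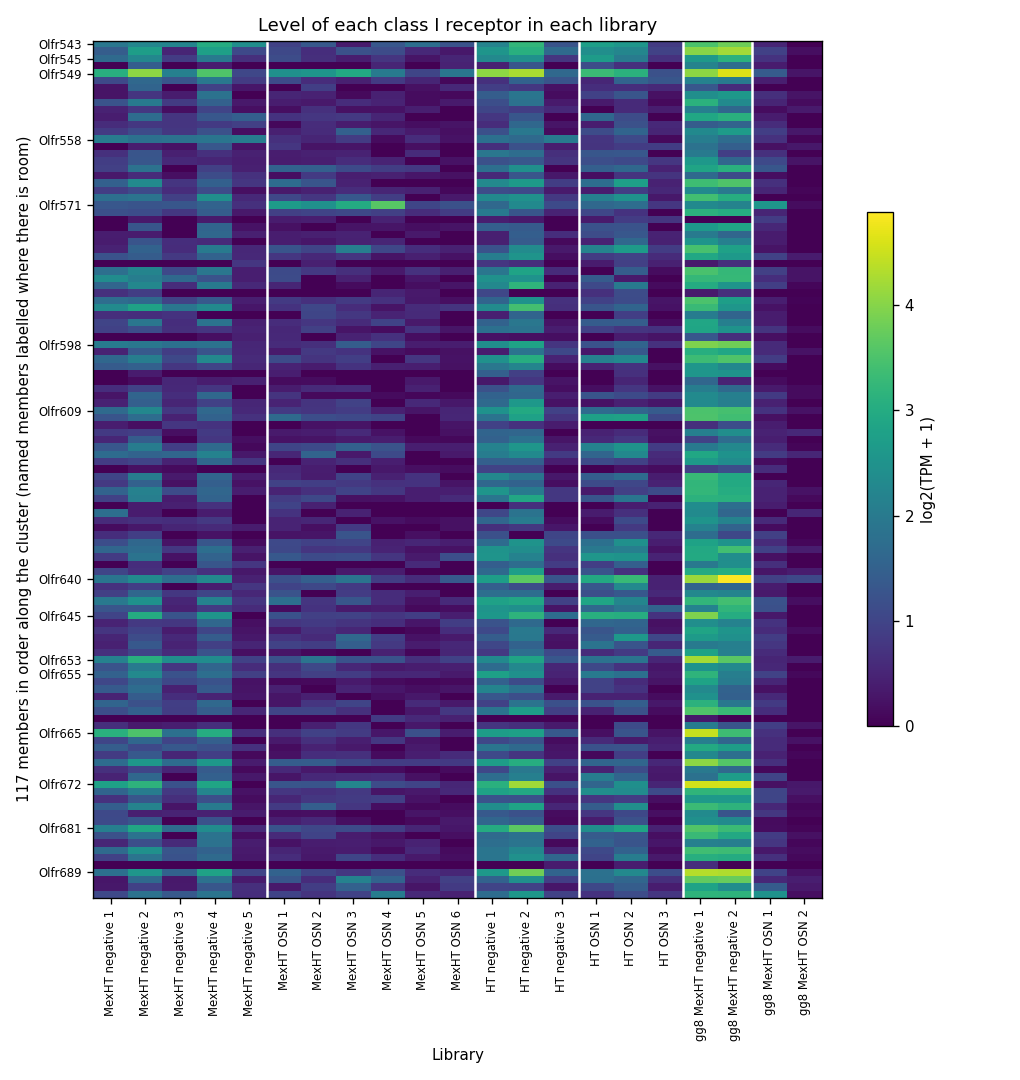
Level of each of the 117 class I receptors (rows, in order along chromosome 7) in each of the 21 libraries (columns, white lines between groups), coloured by log2(TPM + 1). The gg8 negative libraries are bright along the whole cluster, Olfr549 stands out in most negative libraries, Olfr558 keeps a similar level in all negative libraries, and Olfr571 is bright in MexHT OSN 1 to 4.

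Among the 54 members with a mean of 1 TPM or more, most varied with the class as a whole. Over the 17 libraries, Spearman's rho between a member and the sum of the others had a median of 0.84 in these 54 and was over 0.8 for 38 of them. It was 0.96 for Olfr549. Of these 54, the members under 0.5 were Olfr558 (0.36), Olfr571 (0.40) and Olfr550 (0.47). These correlations describe libraries that share depth and the make-up of the sort, and carry no p-value. Olfr558 and Olfr571 are described next, because their levels moved differently from the class.

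Olfr558 (MOR18, chr7:102702323-102712054, + strand) is a receptor for short-chain fatty acids that is also known outside the nose, in vascular cells. Its exons overlap those of Gm45688, so reads of the pair may not be told apart. It read 3.11, 2.48, 2.60, 2.74 and 3.15 TPM in MexHT negative 1 to 5 and 2.47, 2.20 and 2.98 TPM in HT negative 1 to 3. In MexHT OSN it ran from 0.0986 to 0.801 TPM with a median of 0.476, and in HT OSN it read 0.693, 1.12 and 0.0882 TPM. The level was thus nearly flat over the negative libraries, even in MexHT negative 5 and HT negative 3 where few other members were seen, and no OSN library reached it. In HT negative 3 it was the highest of the 117 members. In the gg8 libraries it read 3.18 and 2.32 TPM in negative and 0.626 and 0.0505 TPM in OSN. It was lower in OSN in 10 of 10 mice. In MexHT mice its log2 fold change was -1.43 ± 0.18 (SE; limma on log2(TPM + 1), as all fold changes below), adjusted p = 2.5e-05. In HT mice it was -1.17 ± 0.35 with adjusted p = 0.0735, and with the 4 groups in 1 fit adjusted p = 0.0054. In gg8 mice it was -1.51 ± 0.49 with adjusted p = 0.09996. Markers of vascular smooth muscle and pericytes also stood higher in the negative fractions. The summed level of 5 such genes (Acta2, Myh11, Rgs5, Pdgfrb, Des) was 246 to 822 TPM in MexHT negative, 279 to 474 in HT negative and 168 to 320 in gg8 negative, against 8.99 to 22.1 TPM in all OSN libraries. All 5 were lower in MexHT OSN than in MexHT negative, Acta2 by a log2 fold change of -5.19 and Pdgfrb of -3.37, and none was at 0 in a whole group. Other cell types differed too: 3 horizontal basal cell markers summed to 144 to 1007 TPM in MexHT negative and 8.53 to 16.9 TPM in MexHT OSN. The part of any of these markers in the level of Olfr558 was not tested.

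The RefSeq model of Olfr558 begins inside its first GENCODE vM21 exon, and GENCODE has no exon further upstream, so the 142 bases printed here lie before every exon annotated there. The same holds for 244 bases before Olfr544. They are shown because these are the named members whose printed sequence is not annotated as intron. Coordinates are GRCm38.p6, sequences are from RefSeq and read 5′ to 3′ on the gene's strand.
Olfr558, chr7:102702073-102702214 (+): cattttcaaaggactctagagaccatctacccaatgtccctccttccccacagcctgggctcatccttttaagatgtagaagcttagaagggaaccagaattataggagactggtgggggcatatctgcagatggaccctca
Olfr544, chr7:102488314-102488557 (-): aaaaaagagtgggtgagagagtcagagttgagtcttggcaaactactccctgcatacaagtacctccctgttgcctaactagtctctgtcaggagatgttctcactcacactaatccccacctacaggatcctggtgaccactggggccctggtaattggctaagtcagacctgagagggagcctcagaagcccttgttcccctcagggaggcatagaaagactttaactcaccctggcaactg
Neither stretch holds TAATTA, the core of a homeodomain site such as that of Lhx2, or CCCNNGGG, the core of an Ebf site, on either strand. Over the 250 bases before the RefSeq start, 15 of the 100 members with a sequence (15%) held TAATTA, against 18.6% of 840 other receptors and 4.9% of 27025 genes in the reference table. CCCNNGGG stood in 3 of 100 members (3%), 2.7% of the other receptors and 11.7% of all. No match says only that these letters are not in the window.

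For most other members RefSeq holds a short gene model. RefSeq models of 77 of the 100 members begin at an ATG, against 72.4% of other receptors and 6.8% of all genes in the table. In 88 members a GENCODE exon starts inside the window, and for 73 of them GENCODE has a further exon upstream. In 61 of these 73 (83.6%) the exon is directly preceded by AG, the last letters of an intron. The sequence directly before that exon is annotated as intron in these genes. Its last 30 bases are shown for 6 of the named members, with the AG in capitals, to show what precedes the exon in members described here.
Olfr543, chr7:102477911-102477940 (-): gctcctaaaataaccattttgttctaacAG
Olfr549, chr7:102554190-102554219 (+): tcctgttctctccttctcaaccccattcAG
Olfr571, chr7:102909859-102909888 (-): catgatcaaataaacaaaattacttttcAG
Olfr655, chr7:104597220-104597249 (-): aatcaaccaacacccatgtctcattggcAG
Olfr665, chr7:104880607-104880636 (+): tgaaaaaatacttttatgtcttgtatctAG
Olfr675, chr7:105025065-105025094 (-): gacttaaaggttatttttgtattttatcAG
The motif counts given above cover these intron windows too.

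Olfr571 (the only MOR21 member, chr7:102908869-102909837, - strand) went the opposite way in MexHT neurons. It read 1.49, 1.41, 1.47, 1.94 and 0.605 TPM in MexHT negative 1 to 5. MexHT OSN ran from 1.02 to 11.3 TPM with a median of 4.97, and libraries 1 to 4 (5.37, 4.57, 6.92 and 11.3 TPM) lay above every negative library while 5 and 6 (1.02 and 1.32 TPM) did not. HT OSN read 2.13, 2.33 and 0.715 TPM and HT negative 2.14, 4.01 and 1.13 TPM, with no separation. It was higher in the OSN library in 5 of 5 MexHT mice, lower in 3 of 3 HT mice (in mouse 1 by only 2.13 against 2.14 TPM), and higher in 1 of 2 gg8 mice, where it read 4.90 and 0.123 TPM in OSN and 3.97 and 3.55 TPM in negative. In MexHT OSN 4 it made up 17.7% of the class I level, and it ranked between 1 and 4 among the members in every MexHT OSN library. Its log2 fold change between MexHT OSN and MexHT negative was 1.10 ± 0.43 (adjusted p = 0.0384), and 1.33 with the mouse as a block (adjusted p = 0.0028). The call was lost in 8 of 11 fits that left out a library, in each of which adjusted p lay between 0.0574 and 0.0862. It was also lost with no filter on low values (adjusted p = 0.0521), with median-of-ratios scaling (0.0569) and with voom on recovered counts (0.102). The difference between MexHT and HT mice in this change was 1.40 ± 0.69 in the interaction fit (adjusted p = 0.198) and 1.63 ± 0.41 with the mouse as a block (adjusted p = 0.0269), the only member called there. Over 17 libraries its Pearson r with the sum of the other members was -0.07.

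Olfr543 and Olfr665 were lower in MexHT neurons. Olfr543 read 2.82, 3.71, 3.63, 7.12 and 4.32 TPM in MexHT negative 1 to 5 and 0.273 to 2.38 TPM (median 1.45) in MexHT OSN, with no overlap. In MexHT negative 5, which held the least Omp, it was the leading member with 9.64% of the class I level. In HT mice it read 5.74, 4.95 and 0.811 TPM in OSN and 3.54, 8.22 and 1.42 TPM in negative, with the groups overlapping. Olfr665 (MOR34) read 7.56, 10.5, 2.49, 7.13 and 0.560 TPM in MexHT negative 1 to 5 and 0.222 to 1.28 TPM (median 0.695) in MexHT OSN, so only the negative library 5 overlapped. In HT OSN it read 0.156, 1.42 and 0.199 TPM against 5.57, 5.88 and 1.57 TPM in HT negative, with no overlap. It was lower in OSN in 4 of 5 MexHT mice, 3 of 3 HT mice and 2 of 2 gg8 mice.

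**Figure D3:**
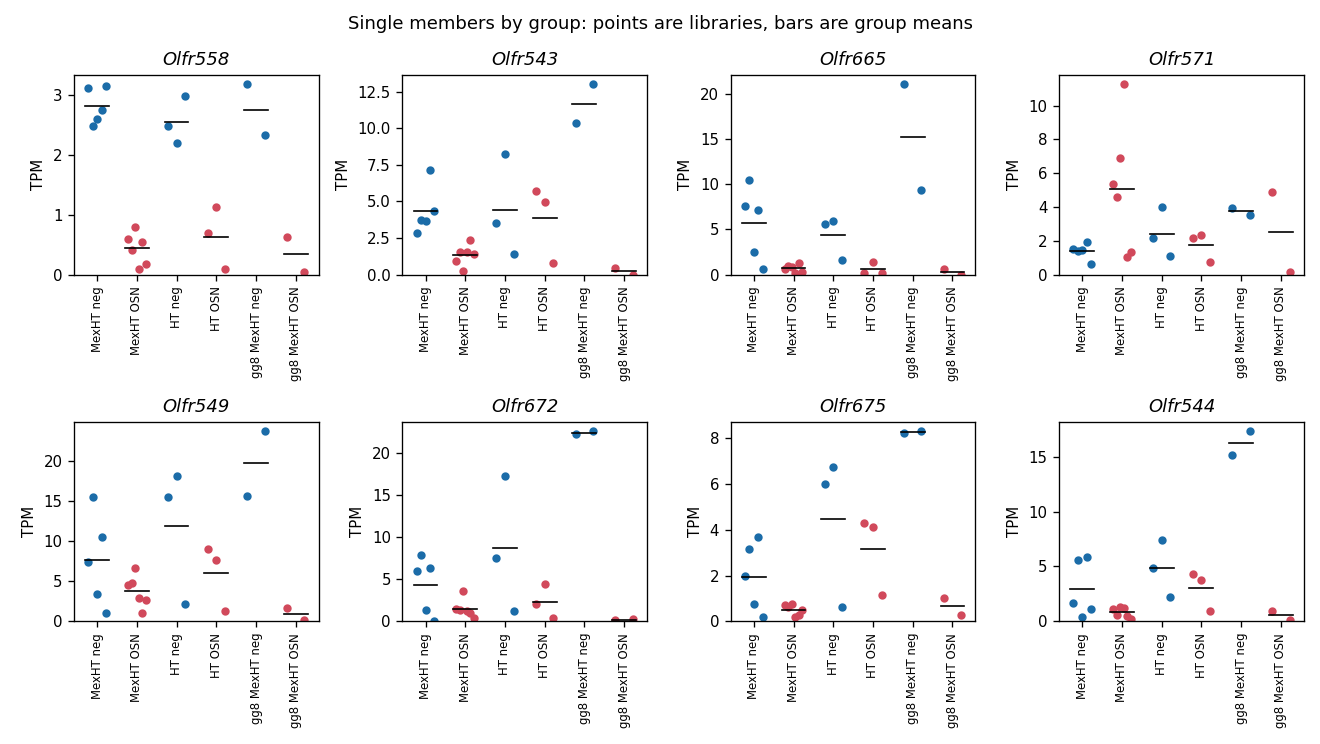
TPM of 8 class I receptors in the 6 groups (linear axes starting at 0; blue points are negative libraries, red points OSN libraries, bars group means; the gg8 groups come from a table scaled separately). Olfr558 separates negative from OSN libraries in every pair of groups, and Olfr571 is highest in MexHT OSN. The other members shown have lower means in MexHT OSN than in MexHT negative, where they scatter widely. For Olfr549 these means are 3.78 and 7.60 TPM.

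In MexHT mice with both drivers, the comparison of OSN with negative cells called 17 members lower and 1 higher of the 38 that passed the filter of a mean of 1 TPM, at an adjusted p under 0.05. Over all 16522 genes tested 63.4% were called and 27.6% were called lower. The members tested had a median log2 fold change of -0.78, against 0.16 over all genes and -0.46 over 319 other receptors, of which 8 were called higher and 91 lower. Those named were Olfr665 (-1.70 ± 0.45, adjusted p = 0.0053), Olfr558, Olfr543 (-1.20 ± 0.27, adjusted p = 0.0018), Olfr681, Olfr689, Olfr653, Olfr655 (-0.88 ± 0.25, adjusted p = 0.0077), Olfr545, Olfr598 and Olfr609. Olfr592 (-1.27) and Olfr585 (-1.24), picked after their values were seen, also passed. Groups did not overlap for Olfr558, Olfr543 and Olfr655. The filter takes the mean over both groups. Olfr558 read at most 0.801 TPM and Olfr655 at most 0.890 TPM in MexHT OSN, so they passed only through the negative libraries. For such members the direction was set in part by the filter, and the median over the members tested shares this limit. Of the leading member Olfr549, the negative libraries read 7.43, 15.6, 3.38, 10.6 and 1.07 TPM and the OSN libraries 1.03 to 6.68 TPM (median 3.72), with a log2 fold change of -0.63 ± 0.50 and adjusted p = 0.287. The count of members called was 6 without MexHT negative 2, 10 without MexHT negative 1 or without MexHT negative 4, and 30 without MexHT negative 5. Under median-of-ratios scaling, which moved the median of all genes from 0.16 to 0.03, 20 members were called lower and none higher. For these alternative fits the counts over all genes are not given here. They therefore do not show whether the members or the whole table changed. Other cell types moved between these fractions: of 8 immature OSN markers 6 were called higher in OSN, while 4 of 6 progenitor and 3 of 3 horizontal basal cell markers were called lower. Of 8 immune markers 5 were called lower, and C1qb (1.08) and C1qc (1.26), named after their values were seen, were called higher. The summed level of the 8 immune markers was 2881 to 4271 TPM in MexHT negative, and that of 10 mature OSN markers ran from 566 to 7065 TPM there and from 2153 to 6494 TPM in MexHT OSN. None of these markers was at 0 in a whole group, and their part in the receptor levels was not tested.

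The filter leaves out 79 of the 117 members in that comparison, so the whole class was also counted with no filter and no test. The mean was lower in MexHT OSN for 104 members (88.9%) and higher for 12, against 77.9% lower of 981 other receptors. In 6 members every OSN library was below every negative library, which 15.1% of all genes with a value did. In HT mice the mean was lower in OSN for 94 members (80.3%), against 65.3% of other receptors. Whether the class differed from the other receptors was not tested.

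In HT mice no member was called in the comparison of OSN with negative cells, of 78 tested, where 11.3% of 17027 genes were called. At an unadjusted p under 0.05, 2 members were lower, Olfr665 (-1.70 ± 0.51, adjusted p = 0.0752) and Olfr558. Over the whole table, 5821 of the 17027 genes had an unadjusted p under 0.05 by limma. The median over the members tested was -0.43, against 0.10 over all genes. With the mouse as a block 3 members were called lower: Olfr665 (adjusted p = 0.0269), Olfr672 (-1.31, adjusted p = 0.0311) and, outside the naming rule, Olfr661 (-1.22, adjusted p = 0.0397). Without both libraries of mouse 3, whose OSN library had the high immune markers, 1 member was called lower, Olfr549 (-0.93, adjusted p = 0.0489). How many genes of the whole table were called in these alternative fits is not given here.

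In gg8 mice, whose driver is active in immature OSN, 55 class I receptors were called lower in the mCherry+ cells. Of 105 members tested 55 were called lower and none higher, where 8.32% of 16490 genes were called and 7.2% called lower. At 1 TPM or more, 109 and 108 members stood in the negative and 10 and 1 in the OSN libraries. Most members thus passed the filter through the negative libraries. The direction of the tested members was therefore largely set by the filter. The median log2 fold change was -2.27, against 0.09 over all genes and -1.86 over 717 other receptors, of which 238 (33.2%) were called lower. Olfr672 read 22.3 and 22.6 TPM in negative and 0.168 and 0.244 TPM in OSN, a log2 fold change of -4.28 ± 0.49 (adjusted p = 0.0151). Olfr689 followed with -3.72 ± 0.53, Olfr598 with -3.59 ± 0.51, Olfr665 with -3.56 ± 0.60 and Olfr544 with -3.54 ± 0.53. Over the whole class with no filter, both OSN libraries were below both negative libraries for 113 of 117 members (96.6%), against 90.9% of 974 other receptors and 24.5% of all genes. Mature OSN markers were lower too: Omp read 164 and 53.8 TPM in OSN against 1937 and 3561 in negative, and 8 of 10 markers were called lower with a median of -4.28. Of 8 immature OSN markers 1 was called higher and 0 lower, with a median of -0.18 and 5 estimates below 0. Among them, Gng8 read 1256 and 664 TPM in OSN against 245 and 185 in negative. Gap43 read 672 and 93.8 TPM in OSN against 614 and 498 in negative. Their part in the receptor levels was not tested. In gg8 MexHT OSN 2 only 7 members had over 3 counts, so these fold changes depend on the 1 TPM added before taking logs and are no bounds. With 0.1 TPM added instead, 17 members were called, and the count over all genes in that fit is not given here. The calls also depend on each library, and their count moved strongly whichever of the 4 libraries was left out. Each such fit leaves a single library in a group. The log2 fold change of Olfr672 then ran from -4.33 to -4.24 and that of Olfr665 from -4.11 to -3.02.

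**Figure D4:**
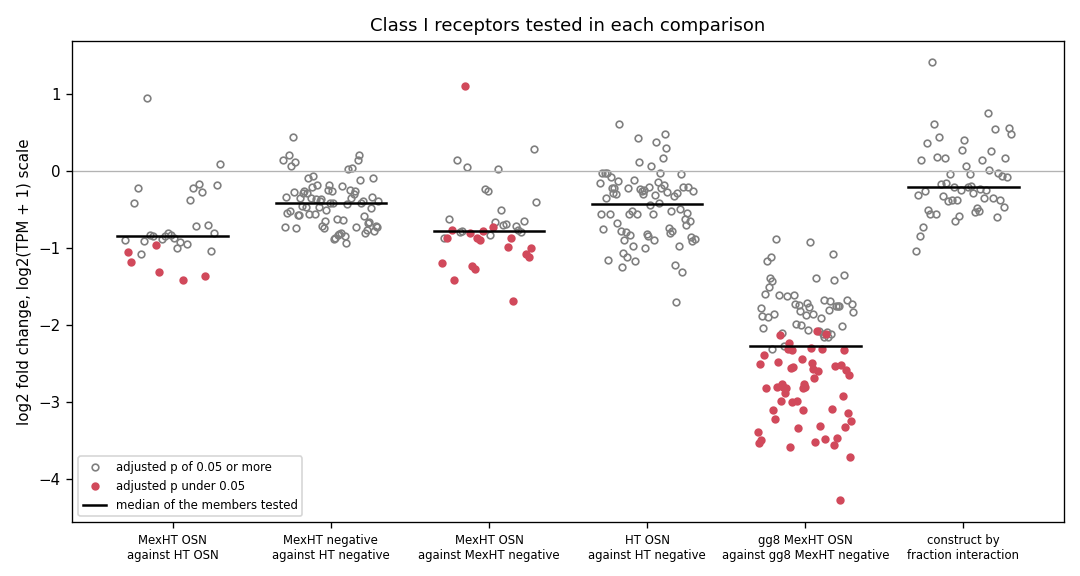
Log2 fold changes on the log2(TPM + 1) scale of the class I receptors that passed the filter in each of 6 comparisons; filled points have an adjusted p under 0.05, bars are medians over the members tested (-0.85, -0.42, -0.78, -0.43, -2.27 and -0.22 from left to right). Nearly all called members lie below 0, and Olfr571 is the filled point above 0 in the comparison of MexHT OSN with MexHT negative.

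Between the constructs, 6 of 32 class I receptors tested (18.8%) were called lower in MexHT than in HT neurons and none higher. That share is near the 16.8% of 16067 genes called lower, and 36.8% were called in either direction. The median over the members tested was -0.85, equal to the -0.85 over 341 other receptors, of which 86 were called lower and 1 higher, and the median over all genes was 0.03. Olfr675 (MOR32) read 4.29, 4.12 and 1.13 TPM in HT OSN and 0.210 to 0.760 TPM (median 0.551) in MexHT OSN, a log2 fold change of -1.37 ± 0.33 (adjusted p = 0.0089). Olfr609 (MOR9) read 2.26, 2.04 and 1.65 TPM in HT OSN and 0.209 to 0.831 TPM (median 0.550) in MexHT OSN, a log2 fold change of -0.96 ± 0.24 (adjusted p = 0.0113). In both the groups did not overlap. Both were under 1 TPM in every MexHT OSN library, so they passed the filter only through HT OSN. Olfr675 kept its call in 8 of 9 fits without 1 library and in 5 of 7 other alternatives. Olfr609 passed the filter in only 6 of these 9 fits and kept its call there, and in 4 of 7 other alternatives. Olfr645 (-1.42), Olfr545 (-1.18), Olfr544 (-1.06) and, outside the naming rule, Olfr610 (-1.31) passed the threshold with adjusted p between 0.0413 and 0.0462, and their groups overlapped through HT OSN 3. For example, Olfr544 read 4.35, 3.74 and 0.941 TPM in HT OSN and 0.242 to 1.31 TPM (median 0.823) in MexHT OSN. With no filter, the mean was lower in MexHT OSN for 103 of 117 members (88%), against 84.1% of other receptors, and every library was lower for 7 (6%), which 14.3% of all genes did.

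That count turned on single libraries. It was 22 without HT OSN 3, 0 without HT OSN 1 and 1 without HT OSN 2. It was 2 without MexHT OSN 2 and 3 without MexHT OSN 4, 5 or 6. Counts over all genes in these fits are not given here. A change in the members therefore cannot be told from one over the whole table. With the level of Xist, an RNA of female cells, as a covariate no member was called. Xist was near 0 in HT OSN 1 and HT OSN 3 and read 58.4 to 140 TPM in MexHT OSN. Cell type markers moved between the groups as well. Of 10 mature OSN markers 9 were called lower in MexHT OSN with a median of -1.33, and of 8 immature OSN markers 6 were called higher with a median of 0.94. Of 8 immune markers 6 were lower, with a summed level of 263 to 509 TPM in MexHT OSN and 1101 to 4463 TPM in HT OSN. Their part in the receptor levels was not tested.

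In the mCherry- cells no member was called between MexHT and HT of 74 tested, where 0% of 16860 genes were called. At an unadjusted p under 0.05 there was no member, and 3465 genes over the whole table. The estimates of 65 of the 74 were below 0, with a median of -0.42. The class I share was 1.19 percentage points higher in MexHT negative than in HT negative on average, 2.25 points higher without HT negative 2 and 0.21 points lower without HT negative 3. In OSN the share was 0.73 points higher in MexHT, 0.22 points without HT OSN 3 and 1.42 points without HT OSN 2. In the interaction of construct and fraction, none of 54 members was called, where 12.4% of 16785 genes were called. No member had an unadjusted p under 0.05, which 4689 of the 16785 genes had.

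Genes that act in receptor choice and export did not all move with the receptors. This list held 18 genes, all tested, among them Lhx2, Ebf1 to Ebf4, Ldb1 and Emx2 (regulators of receptor enhancers), Bcl11b (a regulator of the choice between the receptor classes), Kdm1a and Lbr (chromatin), Rtp1, Rtp2 and Reep1 (receptor export), Gfy (Golgi), and Gnal and Adcy3 (odorant signalling). In MexHT OSN against MexHT negative 11 were called higher and 1 lower. Reep1 was higher by a log2 fold change of 1.92, Emx2 by 1.53 and Ebf3 by 1.18, and Lbr, the lamin B receptor, which mature OSN lack, was lower (-1.71). Bcl11b, named after its value was seen, was also higher (0.94). In MexHT OSN against HT OSN 6 were called higher and 5 lower, with Adcy3 (-2.72), Gfy (-1.30) and Rtp1 (-0.89) lower and Kdm1a (1.01) higher. In HT mice Emx2 (0.61) was higher and Lbr (-1.58) lower in OSN. In gg8 mice Gnal (-5.13), Adcy3 (-3.80) and Gfy (-2.29) were lower in OSN and none was higher. In the mCherry- cells of MexHT against HT mice none of the 18 was called, with 0 calls in the whole table.

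Zone markers gave no single direction. Nqo1 and Acsm4 mark dorsal neurons, where class I receptors are expressed, Ncam2 marks ventral neurons, and Nfia, Nfib and Nfix are transcription factors tied to zone. In MexHT OSN against HT OSN, Nqo1 (-1.08), Ncam2 (-1.71) and Nfix (-0.71) were called lower. The other dorsal marker, Acsm4, had means of 160 TPM in MexHT OSN and 169 TPM in HT OSN and was not called. In MexHT OSN against MexHT negative only Nfix was called (-0.55), while Nqo1 was higher in the negative cells in 3 of 5 mice and Acsm4 in 0 of 5. In HT mice Ncam2 was called higher in OSN (0.69). In gg8 mice Nqo1 (-5.18) and Acsm4 (-3.52) were called lower in OSN.

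Few of the other genes in the cluster were expressed. Of 22 genes without a receptor name between the outermost members, 4 to 6 were tested in a comparison. In MexHT OSN against MexHT negative Trim12c (-2.64), Trim30a (-2.04) and Trim34a (-1.09), members of an antiviral ubiquitin ligase family, were called lower, and Trim12c and Trim30a were also lower in MexHT OSN than in HT OSN. Of the 8 immune markers, 5 were called lower and 2 higher in the first of these comparisons and 6 lower in the second, and their part was not tested. Outside the set stand 14 more class I receptors by MOR name, among them Olfr688, which is in 1 table only. Of these, Olfr455 was the highest, at a mean of 12.4 TPM in MexHT negative and 3.91 TPM in MexHT OSN (log2 fold change -1.34 ± 0.38, adjusted p = 0.0075). Olfr67 was also called lower there (-0.75), and 7 of 9 tested were called lower in gg8 OSN. Olfr78, another receptor for short-chain fatty acids known outside the nose, had means of 1.48 TPM in MexHT negative and 0.857 TPM in MexHT OSN.

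Shared sequence limits what can be said of single members. By exact 50-base stretches of GENCODE vM21 transcripts, 33 of the 117 members shared none with another gene, the median was 1.90% and 32 shared over 10%. Of the members named, Olfr681 shared 23.4% with Olfr679, Olfr598 shared 17.8% with Olfr597, Olfr544 shared 10.9% with Olfr545 and Olfr545 shared 10.1% with Olfr544, so their levels are uncertain. Over all other genes Olfr571 shared 4.38%, Olfr558 1.74%, and Olfr543, Olfr549 and Olfr665 none. The exons of 9 members overlap those of another gene, among them Olfr558 with Gm45688 and Olfr640 with Olfr643. Whether the authors counted by strand is not given in the sources used here, so reads of overlapping genes may not be told apart.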

How the data were processed

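RNA of sorted main olfactory epithelium cells was sequenced after papain dissociation, per the labels' protocols, with a stranded total RNA kit. The authors deposited 2 tables of TPM, a length-normalised transcript level, per gene, scaled separately. The submitters' processing notes name mm10, FastQC, STAR, bedtools and cutadapt. The annotation is not given in the sources used here. Rows with date-like symbols (27 per table) were dropped, leaving 23587 and 22918 genes.

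The members and gene lists were chosen with earlier results of these data known. Class I membership was checked by MOR family names, in place of a newer naming scheme. Tests used limma 3.58.1 (limma-trend, R 4.3.3) on log2(TPM + 1), two-sided, for genes with a mean of 1 TPM or more in the libraries compared, with Benjamini-Hochberg adjustment over all genes tested and a threshold of 0.05. Because this mean covers both groups, a member can pass the filter through the group where it is high. Fold changes on this scale understate changes of low genes. The fit of MexHT OSN against HT OSN (16067 genes) was tested on simulated data with known changes. The changed genes there had higher levels than most members, and the spread was fixed. The simulation therefore does not show how the fit performs on the members. Other work used Python 3.11.15, numpy 2.4.6, pandas 2.3.3 and scipy 1.17.1. Where the labels do not say more, p-values measure the spread between these libraries.

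The TPM values gave back whole counts for 23613 of 23614 genes (tolerance 0.001 counts) and for 22775 of 22808 genes in the gg8 table (99.86%, tolerance 0.05). Depth was 7425290 to 15216500 counts. All replicates differed by more than sampling noise (chi-square per degree of freedom at least 3.335 over 33 pairs).

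Named were Olfr544, Olfr545 and Olfr558, the 10 members with the highest mean over the 17 gg8+OMP libraries, and per comparison up to 5 called members in each direction whose groups did not overlap and whose mean in the higher group was 1 TPM or more. Up to 4 called genes with the largest change were named per gene list. OSN and negative libraries with the same number come from the same mouse per the labels. The main fits did not use this pairing and took all libraries as independent. The fit with the mouse as a block is an alternative. Between MexHT negative and MexHT OSN the deviations of numbers 1 to 5 had correlations of 0.185, 0.275, -0.113, 0.0952 and 0.421. Between HT OSN and HT negative they were 0.183, 0.308 and 0.475. Between MexHT and HT negative cells the same numbers deviated together (correlations 0.343, 0.417 and 0.230). Alternatives changed the pseudocount, filter, scaling, count model (voom), block, groups in the fit, Xist covariate and libraries. Leaving out both libraries of HT mouse 3 was chosen after seeing the data.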

Additional observations from a re-analysis of the deposited data

Results flagged for a closer look

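Over 40 groups of values, 3 members had a library far from the others of its group, where chance gives about 1 in 20. Olfr653 read 2.66 TPM in MexHT OSN 2, against a group median of 1.33 TPM. Olfr672 read 3.65 TPM in MexHT OSN 3, against a median of 1.30 TPM. Olfr598 read 0.436 TPM in MexHT negative 5, the library with the lowest Omp of the negative libraries, against a median of 2.59 TPM.

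Olfr571 read higher in the OSN library than in the negative library of 5 of 5 MexHT mice and lower in 3 of 3 HT mice, in HT mouse 1 by only 2.13 against 2.14 TPM. Its change in HT mice was not called by limma (-0.30 ± 0.44, adjusted p = 0.647) and was 0.02 without HT negative 2. The test of the difference between the constructs gave 1.40 ± 0.69 (log2, adjusted p = 0.198), and 1.63 ± 0.41 with the mouse as a block (adjusted p = 0.0269).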

How the results depend on the processing

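Of 1231 values of single members under an alternative, 1049 kept their direction and side of the threshold, 98 lost the call and 19 gained it. The other 65 changed sign, in 21 pairs of a member and a comparison. None of these was called as reported or under the alternative, where the lowest adjusted p by limma was 0.233. Examples are Olfr571 in gg8 mice (-0.88, and 0.31 without gg8 MexHT OSN 2) and Olfr640 in HT mice (-0.31, and 0.57 without HT OSN 3). For counts and sums, 162 of 194 were unchanged within the stated limits. The count of members called between MexHT OSN and HT OSN (6) became 2 with a pseudocount of 0.1 TPM, 14 with no filter, 3 with all groups in the fit and 0 with Xist as covariate, and ran from 0 to 22 when 1 library was left out. With a replicate block it was 1, Olfr644, shared with none of the 6; here samples share only a number (correlations 0.113, 0.133 and -0.234, own number best in 1 of 3). Between MexHT OSN and MexHT negative (18) it was 36 with no filter and 6 to 30 without 1 library; the replicate block gave 18, of which 15 were shared. Between HT OSN and HT negative (0) the replicate block gave 3, all groups in the fit 1, and leaving out both libraries of HT mouse 3, chosen after seeing the data, 1; leaving out 1 library gave 0 to 1. In gg8 mice (55) a pseudocount of 0.1 TPM gave 17 and leaving out 1 library 0 to 88, where the lone library of a group is assumed to vary like the other group. The replicate block gave 1 call in the interaction (0) and changed no other count by over 1.5 times. Counting any value above 0, the negative cells showed 5.33 more members than OSN in HT mice (20 at 1 TPM) and 35 more in gg8 mice (103 at 1 TPM, 85 at 0.5 TPM), and MexHT OSN minus HT OSN was -7.33 (-33.8 at 1 TPM, -54 without HT OSN 3 and -20.5 without HT OSN 2). The share difference between MexHT and HT negative cells (1.19 points) ran from -0.21 to 2.25 points without 1 library, reversing without HT negative 3. For the counts of members called under an alternative, the count over all genes in the same fit is not given here. They therefore do not show whether the members or the whole table changed. The causes of these changes were not tested. Few class I counts limit gg8 MexHT OSN 2, where 7 members had over 3 counts, against 19 to 112 in the other libraries.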
